A study of Saccharomyces cerevisiae with 8 samples.

Results

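Of the 355 loci at which binding events of the budding yeast origin proteins were grouped here, 351 carried MCM2-7 in both G1-phase replicates, and 26 of these 351 had no ORC event in replicate 2 of the G2-phase lists. These 26 loci are the subject of this section. The events of all 6 deposited lists (9293 events) were pooled, and events up to 250 bp apart were chained into 1 locus. A locus was counted as loaded when it held at least 1 MCM2-7 event in each G1-phase replicate, and it belonged to the 26 when it held none in ORC G2-phase replicate 2. The 26 loci hold 443 events. The comparison group is the other 325 loaded loci, with 8833 events, all of which have an ORC event in that list. The MCM2-7 presence and the missing G2-phase event were set by the rule (background 7.41% of loaded loci) and are no result, since the loci were chosen by them. Events of all 6 lists set the extent of each locus, so presence, number and distances depend in part on the chaining distance. Beyond that, MCM2-7 number, score and position, both G1-phase ORC lists and G2-phase replicate 1 were not used to choose the loci.

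The study mapped ORC and MCM2-7 in W303 yeast by ChIP-Exo, in which an exonuclease trims immunoprecipitated DNA up to the crosslinked protein so that binding is placed to within a few bases. Strain YC779 carries a Flag tag on Mcm4, a subunit of MCM2-7, and was arrested in G1-phase with alpha-factor. Strain YC795 carries a Flag tag on Orc2, a subunit of ORC, and was arrested in G1-phase with alpha-factor or in G2-phase with nocodazole. Each of these 3 conditions has 2 replicates, each with its own list of binding events, and the Orc2 samples released from G1-phase were not analysed here. These are bulk cultures, in which fewer bound cells and weaker binding per cell cannot be told apart.

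The origin recognition complex (ORC) marks replication origins and stays on chromatin through much of the yeast cell cycle. In G1-phase, with Cdc6 and Cdt1, it loads the MCM2-7 helicase as a double hexamer around the DNA, which licenses the origin, and no new loading takes place in G2-phase. Yeast origins, called autonomously replicating sequences (ARS), hold an A-element with the T-rich ARS consensus sequence that ORC reads.

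Sequences of the reference genome at 5 of the 26 loci are given first. The loci were taken from the top of the rankings by MCM2-7, G1-phase ORC and G2-phase replicate 1 ORC place given below. The sequences differ in how close MCM2-7 lies to a consensus match. Each shows 201 bases of build R64 (sacCer3), 5′ to 3′ on the strand that holds the best consensus match within 100 bp, with that match in capitals and the first-listed MCM2-7 event of replicate 1 at base 101. ARS721 (chrVII:568542-568742, minus strand) matched the consensus at 11 of 11 positions and ARS1003 (chrX:16569-16769, minus strand) at 10. ARS1107.5 (chrXI:302582-302782), ARS436 (chrIV:1305741-1305941) and ARS1624 (chrXVI:684140-684340), all on the plus strand, matched at 9, a score that 74.7% of 60051 consecutive genome windows of this length reach or pass. The printed ARS1624 window lies inside the gene HOS1 and outside the annotated ARS, which starts at base 684389. Its MCM2-7 event was at -202 bp from the A-element listed by the study, and that of ARS1003 at 196 bp. Both windows thus leave out the listed A-element, and their capitals do not mark it. At ARS1107.5 the MCM2-7 event was 27 bp from the listed A-element and 38 bp from the middle of the match. The listed position there also lies outside the capitals. ARS436 had no listed A-element within 150 bp. The cells were W303, so single bases may differ from this reference.
ARS721: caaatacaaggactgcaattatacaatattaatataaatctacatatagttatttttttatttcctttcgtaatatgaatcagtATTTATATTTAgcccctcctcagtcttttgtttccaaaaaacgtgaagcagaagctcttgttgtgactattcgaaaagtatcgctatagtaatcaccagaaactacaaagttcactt
ARS1107.5: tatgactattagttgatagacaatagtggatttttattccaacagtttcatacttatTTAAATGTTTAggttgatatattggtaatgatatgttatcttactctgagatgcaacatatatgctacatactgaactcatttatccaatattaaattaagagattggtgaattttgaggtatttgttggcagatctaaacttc
ARS436: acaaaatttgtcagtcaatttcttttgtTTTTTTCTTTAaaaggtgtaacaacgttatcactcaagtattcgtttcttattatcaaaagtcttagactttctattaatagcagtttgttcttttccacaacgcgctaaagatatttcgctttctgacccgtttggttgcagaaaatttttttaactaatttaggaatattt
ARS1624: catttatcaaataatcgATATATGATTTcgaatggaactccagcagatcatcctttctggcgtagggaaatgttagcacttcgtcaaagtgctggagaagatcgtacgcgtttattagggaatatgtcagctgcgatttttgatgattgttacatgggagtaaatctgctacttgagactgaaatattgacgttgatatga
ARS1003: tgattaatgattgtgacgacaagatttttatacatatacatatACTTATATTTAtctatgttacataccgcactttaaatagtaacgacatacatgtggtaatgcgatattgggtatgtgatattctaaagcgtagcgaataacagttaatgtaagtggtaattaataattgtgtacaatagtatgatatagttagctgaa

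Each event carries a score of the authors' event caller, a whole number that ends at a cap of 1000 and is not normalised between lists. Since many events sit at the cap, the place of an event in its list was used as well, as a percentile in which 100 is the event listed first. The lists run broadly, not strictly, from high to low score. They held 1982 and 1723 events for MCM2-7, 1170 and 1379 for ORC in G1-phase, and 2178 and 861 for ORC in G2-phase, in the order of the replicates. The lists used here give no read counts, and the depth of each list and event is therefore not known. There are 2 lists per condition and loci are not replicates of a condition, and no test was run. All differences are therefore descriptions read against the difference between the replicate lists, and brackets give 95% Wilson intervals, which cover counting over loci only.

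In G2-phase replicate 1, ORC was present at nearly all of the 26 loci but stood low, so the label of weak ORC in G2-phase describes the level in that list and not an absence. Of the 26 loci, 25 had an ORC event there (96.2%, 81.1 to 99.3), against 324 of 325 comparison loci and 99.4% of all loaded loci. The exception was ARS451, which runs into the gene of the cell cycle transcription factor Swi5 and was the single locus of the 26 with no ORC event in either G2-phase list. The median place of the first-listed ORC event was 47.1 (quartiles 36.2 and 61.2) at the 25 loci and 83.8 (67.3 and 93.8) at the comparison loci, and the median score was 242 against 752.5. All 25 stood below the comparison median, while the ranges overlapped, with the 25 between 3.12 and 79.2 and the comparison loci between 12.8 and 100. None of the 26 reached the cap in this list (0%, up to 12.9%), against 121 comparison loci (37.2%) and 34.5% of all loaded loci. The 2 G2-phase lists differ in length, so replicate 1 was also shortened to its first 861 events, which kept scores of 337 and above. Then 18 of the 26 loci had no event (69.2%), against 61 of 325 comparison loci (18.8%), and 8 of the 26 still had one.

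The 5 loci listed highest in G2-phase replicate 1 were ARS1624, ARS1003, SPC29, ARS1328 and MRX16/YCF1. Loci without an ARS name are called by the gene they lie in or by both neighbouring genes. At ARS1624 the first-listed ORC event scored 608 and stood at 79.2, although no event lay at the locus in replicate 2. The locus in SPC29, which encodes a spindle pole body protein, scored 461, and the locus between MRX16 and YCF1, a vacuolar glutathione conjugate transporter, scored 420. Ranked among all loaded loci in this list, with 100 the highest, ARS1624 stood at 45.0, ARS1003 at 35.8, SPC29 at 34.96, ARS1328 at 33.8 and MRX16/YCF1 at 30.4, so even these were below most loaded loci. At the low end, ARS1612 scored 73 and stood at 3.12.

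In G1-phase, ORC events were present at nearly all 26 loci. Replicate 1 had an event at 25 (96.2%, 81.1 to 99.3; all loaded loci 99.7%) and replicate 2 at 25 (all loaded loci 98.9%). Both lists had one at 24 of the 26 (92.3%, 75.9 to 97.9), against 322 of 325 comparison loci (99.1%). ARS430.5, in the gene of the synaptonemal complex protein Zip1, had no event in replicate 1, and ARS1017 had none in replicate 2. Presence therefore hardly separated the groups, whereas the place did. In replicate 1 the first-listed G1-phase ORC event had a median place of 38.3 (quartiles 18.7 and 59.7) at the 26 loci and 81.2 (65.3 and 92.1) at the comparison loci. In replicate 2 the medians were 22.3 (13.4 and 31.2) and 76.6 (44.0 and 91.8). The gap between the group medians was larger in each list than the gap between the replicate medians within either group. The median scores were 359 and 211 at the 26 loci, and 1000 in both replicates at the comparison loci. Only ARS721 reached the cap in replicate 1 (3.85%, 0.682 to 18.9; all loaded loci 61.3%), and none of the 26 did in replicate 2 (all loaded loci 54.4%).

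**Figure D1:**
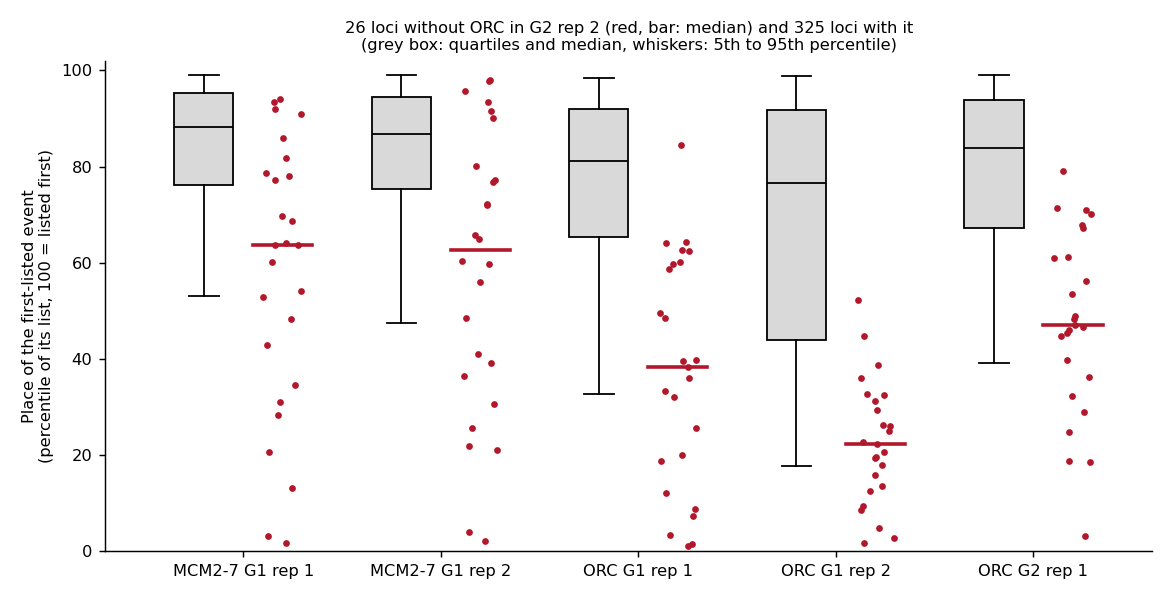
Place of the first-listed event at each locus (percentile of its list, 100 listed first) in the 5 lists in which the 26 loci have events. Red points are the 26 loci with a red bar at the median, and grey boxes are the 325 comparison loci (quartiles and median, whiskers from the 5th to the 95th percentile). The red medians lie at 63.7 and 62.7 for MCM2-7, at 38.3 and 22.3 for ORC in G1-phase, and at 47.1 for ORC in G2-phase replicate 1, below the grey median in each list.

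The 5 loci with the highest G1-phase ORC places were ARS721, ARS436, ARS414, ARS1624 and ARS215. ARS721 led in both replicates, with scores of 1000 and 585 and places of 84.4 and 52.1. ARS436 followed with scores of 502 and 440. ARS414 scored 696 and 270, ARS1624 scored 689 and 257, and ARS215 scored 840 and 213. Among these loci replicate 2 was the lower list each time. Over the 24 loci with events in both lists, the place was lower in replicate 2 at 18, with a median difference of -16.8, against 214 of 322 comparison loci with a median of -4.25. Places in G2-phase replicate 1 are not directly comparable with those in G1-phase, because a longer list places the same event higher, and the values are given side by side only. The ORC place there was above that in G1-phase replicate 1 at 16 of 24 loci, and above that in replicate 2 at 20 of 24. For the comparison loci these counts were 179 of 324 and 228 of 322.

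MCM2-7 was scored at the cap at most of the 26 loci, but less often than elsewhere. In replicate 1, 18 of 26 loci held an MCM2-7 event at the cap (69.2%, 50.01 to 83.5), against 96.6% of comparison loci and 94.6% of all loaded loci. In replicate 2 it was 16 of 26 (61.5%, 42.5 to 77.6), against 92.6% and 90.3%. The cap hides the difference in the median score, which was 1000 in both groups and both replicates. By place, the first-listed MCM2-7 event had a median of 63.7 (quartiles 36.5 and 78.5) in replicate 1 against 88.1 (76.1 and 95.3), and of 62.7 (37.2 and 79.4) in replicate 2 against 86.8 (75.3 and 94.5). The medians thus differed by about 1 percentile between the replicates within each group and by about 24 between the groups. Single loci could differ far more between replicates, with ARS1612 at 63.6 and 30.6 and ARS1428 at 52.9 and 77.3. The ranges overlapped widely, since places of the 26 loci ran from 1.66 to 94.0 in replicate 1 and from 2.15 to 98.1 in replicate 2.

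The loci with the highest MCM2-7 places were ARS721, ARS1107.5, ARS1531, ARS608 and ARS1328, each with a score of 1000 in both replicates. ARS721 stood at 94.0 and 97.8, ARS1107.5 at 93.4 in both lists, ARS1531 at 91.0 and 95.8, ARS608 at 85.9 and 98.1, and ARS1328 at 92.0 and 91.5. All of these but ARS608 were above the comparison median in both lists, and they were the 4 of the 26 for which that holds. Their ORC places were lower, but these loci were picked for high MCM2-7 places from a group set by a missing ORC event. The lists also differ in length, so places are not directly comparable between them, and the values are given side by side only. ARS1107.5, 236 bp from a tRNA gene, stood at 33.2 and 4.86 in the G1-phase ORC lists and at 18.4 in G2-phase replicate 1, with ORC scores of 290, 93 and 117. ARS1531 scored 752 and 119 for ORC in G1-phase and 235 in G2-phase replicate 1. ARS608 scored 380, 303 and 202, and ARS1328 scored 797, 193 and 447 in the same lists. At these loci a capped MCM2-7 score stood beside ORC scores below the cap, ARS721 in G1-phase replicate 1 excepted.

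The low end was set by 2 loci chosen after their values were seen. At ARS436 the single MCM2-7 event of each replicate scored 132 and 68, the events lay 417 bp apart, and the replicate 1 event was 129 bp from a tRNA gene. The locus inside IRE1, which encodes the sensor kinase of the unfolded protein response, had MCM2-7 scores of 82 and 81, with no pair of replicate events closer than 127 bp. These were the only loaded loci without MCM2-7 events of both replicates within 50 bp, a criterion met by 24 of the 26 (92.3%, 75.9 to 97.9), by all 325 comparison loci and by 99.4% of all loaded loci. Loading at these 2 loci therefore rests on low events at different positions.

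**Figure D2:**
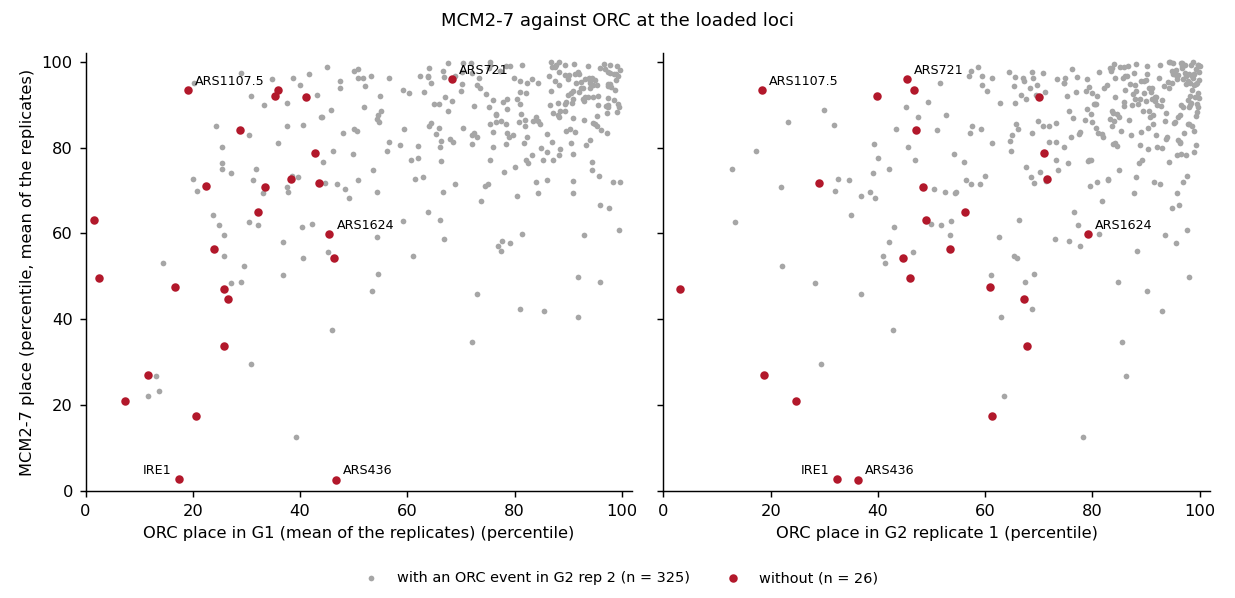
Mean MCM2-7 place of each loaded locus over both replicates (vertical, percentile) against its ORC place (horizontal, percentile) in G1-phase (left, mean of the replicates with an event) and in G2-phase replicate 1 (right). Red points are the 26 loci (25 on the right, where ARS451 has no event) and grey points the comparison loci (324 on the right). The red points lie left of most grey ones and spread over the whole MCM2-7 axis, from ARS436 and IRE1 near 2.61 and 2.78 to ARS721 at 95.9.

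When the 351 loaded loci were ordered by G1-phase ORC place, 25 of the 26 were among the lowest 87 and 1, ARS721, among the next 88. By place in G2-phase replicate 1, 19 were among the lowest 87, 6 among the next 87 and none above. By MCM2-7 place, 18 were among the lowest 87, and 3, 4 and 1 were in the next groups of 88. The median rank of the 26 among the loaded loci, on a scale on which 100 is the highest, was 14.7 for MCM2-7, 8.40 for ORC in G1-phase and 12.9 for ORC in G2-phase replicate 1. MCM2-7 ranked above G1-phase ORC at 18 of the 26 loci, with a median difference of 5.13, and at 147 of 325 comparison loci. Against ORC in G2-phase replicate 1 it ranked higher at 11 of 25 loci, with a median difference of -1.44, and at 163 of 324 comparison loci.

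The 26 loci had fewer events than the others. MCM2-7 events numbered 5 per locus at the median in replicate 1 (range 1 to 9) and 4 in replicate 2 (1 to 8), against 6 and 5 at the comparison loci. ORC events numbered 2 in each G1-phase replicate, against 3 and 4, and 4 in G2-phase replicate 1, against 6. The loci were no narrower, with a median span of 382.5 bp against 369 bp. The MCM2-7 difference was 1 event in each replicate. For ORC in G1-phase it was 1 event in replicate 1 and 2 in replicate 2, and G2-phase replicate 1 has no other list to set beside it at these loci. Most MCM2-7 events were found at SPC29, with 8 in each replicate, TRK2/HFL1 (9 and 6), ARS414 (7 and 7), ARS1624 (6 and 7) and ARS1626 (5 and 7). TRK2 encodes a potassium transporter.

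**Figure D3:**
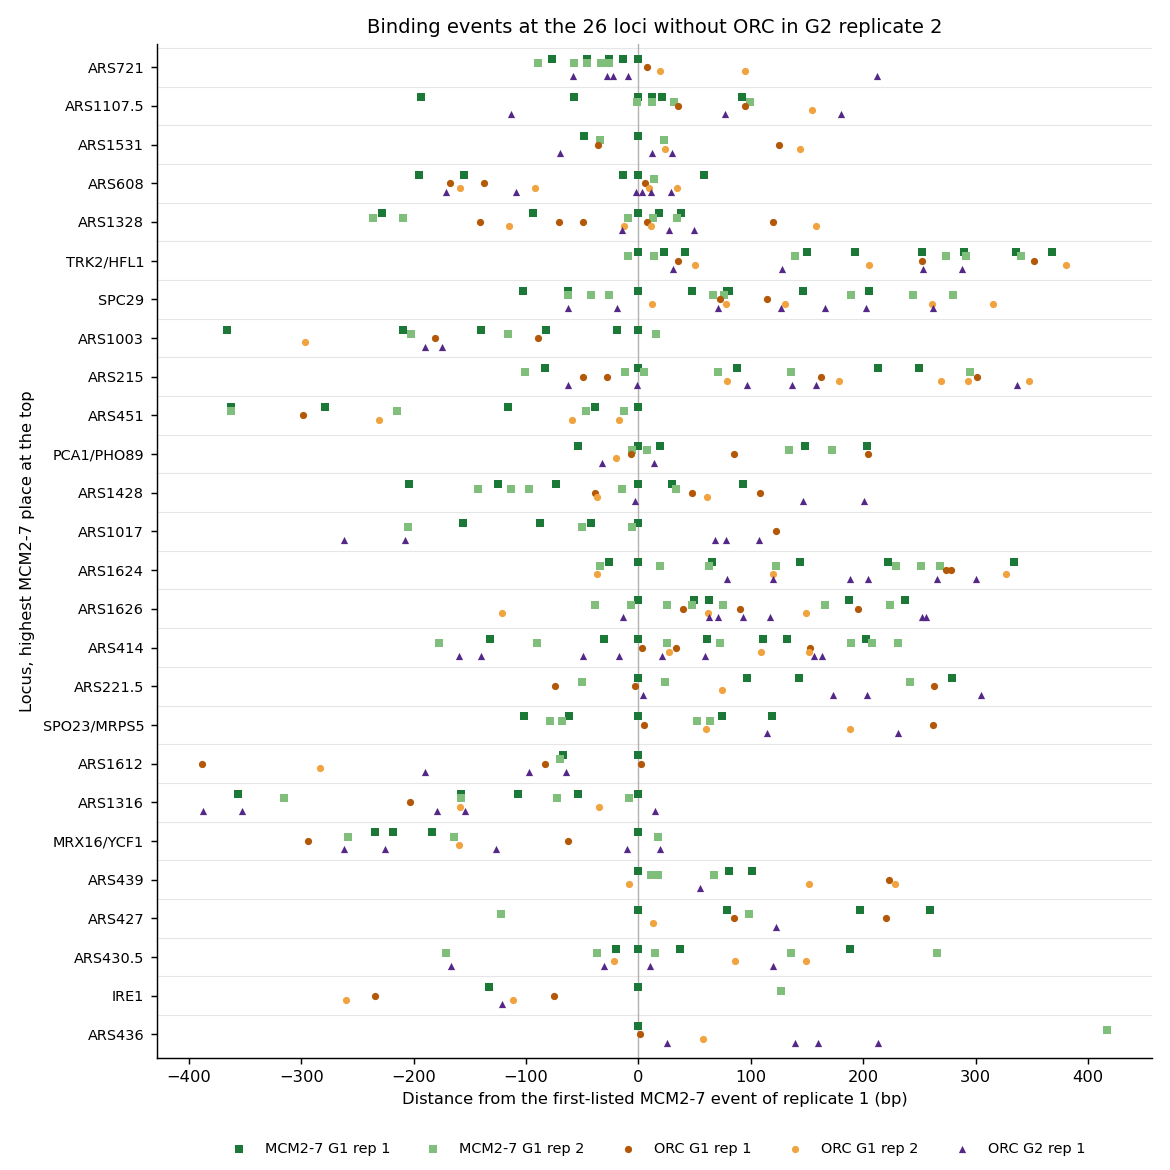
All 443 events of the 26 loci by distance in bp from the first-listed MCM2-7 event of replicate 1, with 1 row per locus and the highest mean MCM2-7 place at the top. Squares are MCM2-7 and circles ORC in G1-phase, darker for replicate 1, and triangles are ORC in G2-phase replicate 1. Events at ARS721 and ARS1531 are mostly close to the centre line, those at TRK2/HFL1, SPC29 and ARS1624 run over more than 300 bp, and ARS451 has no triangle.

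The nearest ORC event lay farther from MCM2-7 at the 26 loci. These loci also held fewer G1-phase ORC events (median 2 in each replicate, against 3 and 4). Whether the number of events sets the distance was not tested. From the first-listed MCM2-7 event to the nearest G1-phase ORC event of the same replicate number the median distance was 36 bp (quartiles 7 and 85) in replicate 1 and 37 bp (13 and 124) in replicate 2, against 15 bp (6 and 35) and 18 bp (6 and 36). ORC was within 50 bp at 15 of 26 loci in replicate 1 (57.7%, 38.9 to 74.5), against 88.6% of comparison loci and 86.3% of all loaded loci, and at 13 of 26 in replicate 2 (50%, 32.1 to 67.9), against 83.1% and 80.6%. Loci with no ORC event in a list have no distance and were counted as not within 50 bp. These were 1 of the 26 in each replicate and 3 comparison loci in replicate 2. The 26 loci differed among themselves. At ARS414 the distances were 3 and 2 bp and at ARS608 6 and 5 bp, while at ARS1003 they were 89 and 181 bp and at ARS1624 274 and 56 bp. At ARS436 they were 1 bp in replicate 1 and 360 bp in replicate 2. Positions also varied more between replicates. The first-listed MCM2-7 events of the 2 replicates were 49 bp apart at the median, against 19 bp, and within 50 bp at 15 of 26 loci (57.7%), against 78.2% of comparison loci and 76.6% of all loaded loci. First-listed G1-phase ORC events of the replicates were 72.5 bp apart, against 30 bp.

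The best match to the ARS consensus sequence (11 positions, both strands, degenerate bases allowed) near MCM2-7 was poorer at the 26 loci. Within 100 bp of the first-listed event, a match at 10 or more positions was found at 12 of 26 loci in replicate 1 (46.2%, 28.8 to 64.5) and at 13 in replicate 2 (50%, 32.1 to 67.9), against 81.5% of comparison loci in both, 78.9% and 79.2% of all loaded loci, and 18.8% of genome windows. A match at all 11 positions was found at 3 of 26 in each replicate (11.5%, 4.0 to 29.0), against 32.9% and 33.8% of comparison loci, 31.3% and 32.2% of all loaded loci, and 1.23% of windows. The mean match was 9.54 and 9.58 of 11, against 10.1 in both replicates, with SDs over loci of 0.761 and 0.758, and 0.724 and 0.729. The A+T content of the windows at the loci was close, with medians of 69.4% and 68.4% against 70.1% and 70.6%. The genome windows were consecutive and were not matched to the loci for A+T content. ARS221.5, ARS721 and ARS1531 held a full match in replicate 1, and ARS721, ARS1531 and ARS1626 in replicate 2. In the printed ARS721 sequence the match lies 11 bp from the MCM2-7 event, while in ARS1624 the 9-position match lies 78 bp away. A match describes letters only and does not show that ORC binds there.

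**Figure D4:**
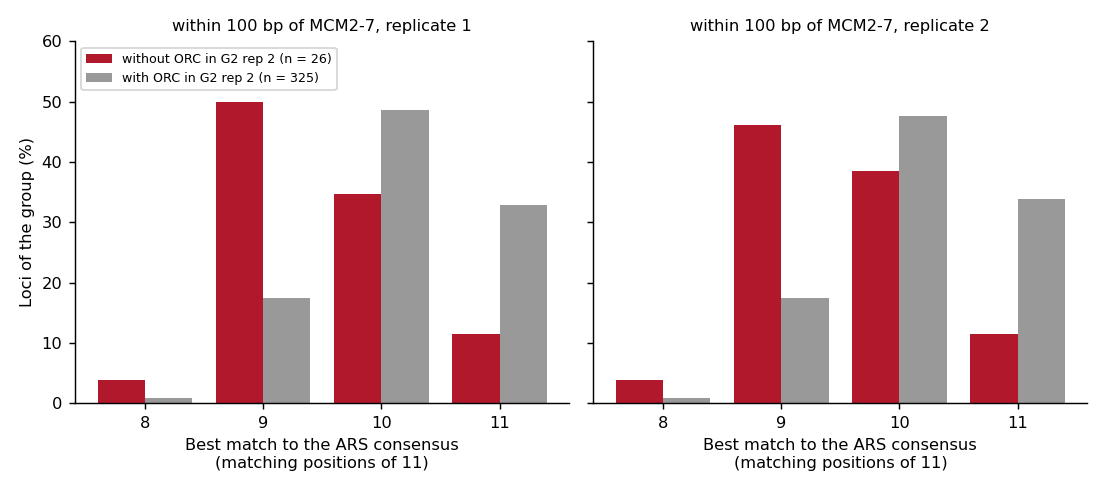
Share of loci (%) by best match to the ARS consensus sequence (matching positions of 11) within 100 bp of the first-listed MCM2-7 event, in replicate 1 (left) and replicate 2 (right), with the 26 loci in red and the 325 comparison loci in grey. The 26 loci are mostly at 9 and 10 positions and the comparison loci at 10 and 11, and a full match is held by 11.5% of the 26 in each replicate.

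Fewer of the 26 loci overlapped known origins. An ARS of the RefSeq annotation of R64 overlapped 16 of the 26 (61.5%, 42.5 to 77.6), against 265 of 325 (81.5%) and 80.1% of all loaded loci. The study's list of A-elements, which its authors adjusted by their own ORC and MCM2-7 footprints and which leaves out origins without MCM2-7, had an entry within 150 bp of an event at 15 of the 26 (57.7%, 38.9 to 74.5), against 308 of 325 (94.8%) and 92% of all loaded loci. It is therefore not independent of these data. Neither source named an origin at 6 of the 26, against 14 of 325 comparison loci. These were the loci at SPO23/MRPS5, PCA1/PHO89, MRX16/YCF1, IRE1, TRK2/HFL1 and SPC29, named here after their values were seen. Their MCM2-7 scores were not all low. PCA1/PHO89, TRK2/HFL1 and SPC29 were at the cap in both replicates, SPO23/MRPS5 scored 788 and 1000, and MRX16/YCF1 scored 669 and 560. The study also sorted origins into 4 clusters by G2-phase ORC signal, with C4 the weakest. Of the 26, 10 were in C4 (38.5%, all loaded loci 20.2%) and none in C1 to C3 (all loaded loci 21.9%, 22.2% and 22.2%). The other 16 were in no cluster (61.5%, all loaded loci 13.4%). However, the clusters were made from the same G2-phase samples.

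More of the 26 loci than of the comparison loci as a whole had MCM2-7 in genes. The first-listed MCM2-7 event lay inside an annotated gene at 7 of 26 loci in each replicate (26.9%, 13.7 to 46.1), against 30 of 325 (9.23%) in each and 10.5% of all loaded loci. In replicate 1 these were SLX1 (ARS221.5), SWI5 (ARS451), ZIP1 (ARS430.5), IRE1, SRT1 (ARS1316), SPC29 and HOS1 (ARS1624). Only those in IRE1, 1502 bp from the nearer gene end, and in ZIP1, 1159 bp, were far inside. The events in SRT1, SLX1, SWI5, SPC29 and HOS1 lay 6, 14, 66, 76 and 113 bp from a gene end. In replicate 2 the event at ARS1316 was outside SRT1, and that at PCA1/PHO89 was inside PHO89, the gene of a sodium and phosphate cotransporter. Of the loci between genes, 11 lay between genes read in the same direction (42.3% of the 26, against 44.4% of all loaded loci). Another 7 lay between convergent genes (26.9% of the 26, against 27.6%). ARS721 alone lay between divergent genes (3.85%, 0.682 to 18.9, against 16.9% of comparison loci and 16% of all loaded loci). That interval includes the comparison share.

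The 26 loci were spread over 11 of the chromosomes, with 7 on chromosome IV, 4 on II and 4 on XVI, where 87 of the 325 comparison loci lie. None was on I, III, V, IX or XII, which hold 11, 15, 16, 16 and 26 comparison loci. Within 10 kb of a chromosome end there was none (0%, up to 12.9%), against 23 comparison loci (7.08%). ARS1017 alone was within 30 kb of a centromere (3.85%, 0.682 to 18.9, against 11.7%). Both intervals include the comparison share. The next locus was 16174.5 bp away at the median, against 21783 bp, and none had another locus within 1000 bp.

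At the edge of the rule, the nearest event of G2-phase replicate 2 was between 2961 and 34981 bp from the 26 loci (median 16434.5 bp). With chaining at 250 bp no locus was thus a member by a few bases, while chaining at 100 bp gave 36 loci. Of the comparison loci, 86 had a single event in that list. Just outside were 5 loci with 1 event at a score of 70, the lowest of the list, of which ARS1203, ARS1227 and ARS1413 had the highest MCM2-7 places. Their MCM2-7 scores were 1000 in both replicates, and their ORC scores in G1-phase were 331 and 106 at ARS1203, 626 and 592 at ARS1227, and 584 and 599 at ARS1413. Their ORC scores in G2-phase replicate 1 were 269, 136 and 175, within the range of the 26 loci. Over the 86 loci with a single event the median places were 85.0 and 83.2 for MCM2-7, 68.4 and 43.0 for ORC in G1-phase and 69.1 for ORC in G2-phase replicate 1. With 3 or more events in replicate 2 (157 loci) they were 90.0 and 89.4, 85.7 and 83.1, and 89.2. The medians of the 26 loci were thus below those of the loci with 1 event in all 5 lists, and a consensus match at 10 or more positions was found at 77.9% and 75.6% of those 86.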

How the data were processed

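The 6 event lists for Mcm4 and Orc2 were used as deposited, 1 per replicate, with a position and a score per event. Per the labels and methods, the authors mapped reads to sacCer3 (Bowtie2 2.3.5) and called events with ChExMix without motif discovery, with tRNA genes and the rDNA left out. They name 2 settings of the caller's divergence threshold without saying which list had which, and whether this bears on the 861 and 2178 events of the G2-phase lists was not tested. The deposited score is a whole number up to 1000 and the depth of each list is not given, so events near the caller's limit can be present in 1 list and missing from another.

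Events were pooled and chained at 250 bp. Members and lists were chosen with earlier results of these data known. Distances used event positions. The ARS consensus was scored over both strands of R64, with 352 annotated ARS from RefSeq and 332 A-elements from the study's supplementary list. Named loci were, among the 26, the 5 with the most MCM2-7 events and the 5 highest in MCM2-7, G1-phase ORC and G2-phase ORC place, and the 3 loci just outside with a single event of the lowest score; others named were chosen after their values were seen. Groups came from the sample titles. Shares have 95% Wilson intervals, and no test was run. Alternatives were other chaining distances, a score filter, leaving out each replicate, other definitions of the loci, scores in place of places and a wider consensus window. Python 3.11.15 with NumPy 2.4.6, pandas 2.3.3 and Matplotlib 3.10.9 was used, and the scripts were tested on simulated data.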

Additional observations from a re-analysis of the deposited data

How the results depend on the processing

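No paired analysis was possible because no result comes from a test. The main values were 26 loci, 92.3% with ORC in both G1-phase lists, 96.2% in G2-phase replicate 1, and, as medians of the 26 minus the comparison loci with the replicates averaged, -1 MCM2-7 event, places of -25.3 for MCM2-7, -49.8 for G1-phase ORC and -36.7 for G2-phase ORC, 42 bp from MCM2-7 to ORC, and a mean of -0.58 in consensus match. Dropping events that scored below their own list's median gave 96 loci, 36.5% and 68.8% with ORC, places of -8.26, -17.7 and -21.1, 4 bp and -0.15. The fewer events left make more loci lack one. Chaining at 100 bp gave 36 loci, 66.7% with ORC in G1-phase and 83.3% in G2-phase replicate 1. It also gave -1.5 events, a MCM2-7 place of -31.4 and 23 bp. With no event in either G2-phase list, 1 locus was left (ARS451), with 100% in G1-phase, -0.5 events, a place of -15.0 and 134.5 bp. Leaving out 1 Mcm4 or G1-phase Orc2 replicate gave 26 to 27 loci, 88.9 to 96.2% in G1-phase, MCM2-7 places of -24.5 to -24.2, 19 to 21 bp and a consensus match of -0.62 to -0.57. In the main setting replicates 1 and 2 by themselves gave 21 and 19 bp. The value of 42 bp thus comes from averaging the replicates at each locus before taking the median. Using G2-phase replicate 1 in the rule in place of replicate 2 gave 2 loci, 50% in G1-phase, -38.9, 64 bp and a consensus match of 0.15, the reverse direction. Chaining MCM2-7 events alone gave -23.7 and 40 bp. Loci of at most 400 bp gave -0.5 events, -25.5, 66.5 bp and -0.64. By score the MCM2-7 difference was 0. A consensus window of 250 bp gave -0.31. After seeing the data, 2 alternatives were added: loci with MCM2-7 events of both replicates within 50 bp gave -22.7, 33.8 bp and -0.56, and shortening G2-phase replicate 1 to the length of replicate 2 gave 25 loci after chaining anew, 32% with ORC in that list, -23.7, -18.8 for its ORC place and 40 bp. Where no construction is named, the cause was not tested. Membership rests on the absence of an event from 1 short list, and the depth of that list, which limits such absences, is not given in the sources used here.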
